A study of Mus musculus with 4 samples.

Results

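The receptors described here are 10 genes through which dendritic cells and macrophages bind and take up sugars, lipids, microbes and dying cells: Ly75, Clec7a, Clec4n, Clec4a2, Clec4d, Clec4e, Clec10a, Mrc1, Msr1 and Cd36. Their members are the probe sets that the array's platform annotation assigns to exactly 1 of these symbols, 18 of the 22690 probe sets in the table. A further probe set that names Clec4a2 together with another gene was left out. The series holds 4 arrays of Langerhans cells, the antigen-presenting cells of the epidermis, sorted from mice to a purity of 95% at 24 h after an injection into the peritoneum. TCDD (2,3,7,8-tetrachlorodibenzo-p-dioxin) is the dioxin that activates the transcription factor AhR (aryl hydrocarbon receptor). Control 1 (DMSO in olive oil) and TCDD 1 (10 µg TCDD in oil) carry no skin site in their labels, and control 2 and TCDD 2 (10 µg TCDD in DMSO and oil) came from back skin. Control 2 is a control by its title and description, but its treatment entry names TCDD, so each difference is also given without it where that matters. The labels of control 1 and control 2 give different experiment dates, and those of the TCDD arrays give none. Arrays were therefore paired by their site wording alone. The 2 pairs of arrays are called preparations, and site and experiment cannot be told apart. The sources used here name no mouse strain, age or sex and no number of animals per array. The spread between these arrays may therefore be technical. Each SE (standard error) below is moderated, that is, drawn toward the spread of tested probe sets of like signal. With 1 residual degree of freedom per probe set, it is not that probe set's own replicate spread.

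C-type lectin receptors bind carbohydrates, in many cases with the help of calcium, through a shared extracellular fold. Ly75 (DEC-205) and Mrc1 (the mannose receptor) carry several such domains and deliver bound antigen to endosomes for presentation. Clec7a (Dectin-1) binds fungal beta-glucan and signals through the kinase Syk. Clec4n (Dectin-2), Clec4d and Clec4e (Mincle) have short tails and signal with the Fc receptor gamma chain. Clec4a2 (DCIR) instead carries an inhibitory tail motif. Clec10a binds galactose-type sugars. Msr1 and Cd36 are scavenger receptors of other protein families that take up modified lipoproteins and apoptotic cells.

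The arrays were of Langerhans cells by their labels, and they differed in RNA quality and in the signals of cell type markers. Langerin (Cd207), the C-type lectin that defines these cells, had signals of 2119.9 (control 1), 7211 (control 2), 5343 (TCDD 1) and 2155 (TCDD 2) in MAS5 units, the linear scale of the deposited table. Signals of different probe sets are not compared with each other here, since each probe set binds its target with its own strength. Of 12 Langerhans cell markers, 11 lay above the filter described next, and Il34, which keratinocytes and not Langerhans cells are known to make, did not. Measured markers of other cell types passed it too: 6 of 7 for T cells, 4 of 5 for platelets and 4 of 6 for keratinocytes. So did 9 of 14 for dermal macrophages and monocytes, 4 of 8 for neutrophils, 3 of 7 for endothelium and 2 of 4 for adipocytes. Passing the filter therefore does not name the cell type. For actin, the 3′ control probe set was 49.7 times as bright as the 5′ one on control 1 and between 3.48 and 7.71 times on the other 3 arrays. A high ratio means that labelled RNA reached less far from the 3′ end.

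A probe set was tested if its mean log2 signal over the 4 arrays was at or above 6.85, the 40th percentile, which left 13576 probe sets. Of the 18 receptor probe sets 7 passed, and they stand for 6 genes: Ly75, Clec7a, Clec4n (a pair of probe sets), Clec4d, Mrc1 and Msr1. The second Clec4n probe set (6.90) and the Msr1 probe set (6.92) lay just above the threshold. Clec4a2, Clec4e, Clec10a and Cd36 had no probe set above it. In bulk RNA, fewer cells that express a gene and less RNA per cell cannot be told apart.

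The first comparison asked how the receptors differ after TCDD. Clec4n read higher on both TCDD arrays than on both controls with each of its probe sets, and Mrc1 and Clec7a did so by smaller margins. Ly75, Clec4d and Msr1 overlapped between the groups. No receptor passed the test: 0 of 7 probe sets reached an adjusted p under 0.05 (adjusted p from limma = 0.9999 for each), as did 0 of all 13576 tested (0%). Over all 18 receptor probe sets, tested or not, both TCDD arrays lay above both controls for 4, both lay below for 4 (1 each of Clec4a2, Clec10a, Msr1 and Cd36, all under the filter) and the groups overlapped for 10. Over all 22626 probe sets with no filter, 12.8% lay above and 14.9% below. The median log2 difference of the 18 was 0.20, beside -0.01 over all probe sets. An unadjusted p under 0.05 was found for 1 of the 7 tested, the second Clec4n probe set, and for 1.47% of all tested. That probe set and the Msr1 probe set had control means under the filter, 6.29 and 6.18, and TCDD means above it, 7.51 and 7.66. For Msr1 control 1 alone was low (24.1), and control 2 was the highest array (216.7). Since these control means lay under the filter, nothing is read from counts or medians over the 7. Among those 7, both TCDD arrays lay above both controls for 4, or 3 of the 6 genes by their brightest probe set, and below for 0. Among all tested probe sets this held for 12.4% (above) and 13.2% (below).

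**Figure D1:**
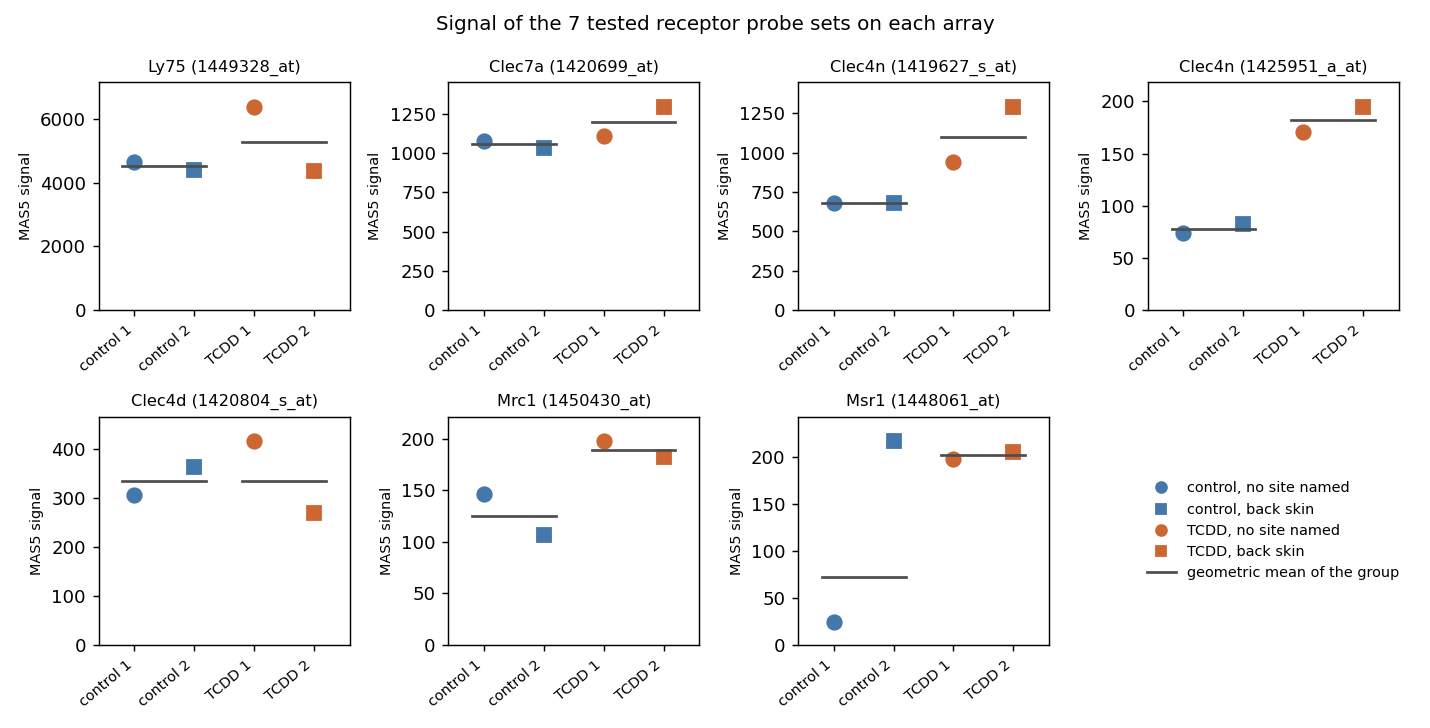
MAS5 signal (linear axis from 0) of the 7 receptor probe sets that passed the expression filter, on control 1, control 2, TCDD 1 and TCDD 2; circles are arrays with no site named, squares are back skin, and lines are the geometric mean of each group. For Clec4n, Mrc1 and Clec7a both TCDD points lie above both control points, and for Msr1 control 1 (24.1) stands far below the other 3 arrays.

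Clec4n, the receptor for fungal mannans known as Dectin-2, had 2 probe sets that ran the same way. The first (1419627_s_at) read 680.6 on control 1, 678.8 on control 2, 939.3 on TCDD 1 and 1292 on TCDD 2. The second (1425951_a_at) read 74.3 and 82.1 on the controls and 170.6 and 194.9 after TCDD. On both, the controls lay close together and the groups did not overlap. The TCDD minus control log2 difference was 0.70 ± 0.35 (SE, n = 2 per group) for the first, a 1.62-fold signal, with a 95% interval from -0.10 to 1.49. It was 1.22 ± 0.46 for the second, a 2.33-fold signal, with an interval from 0.17 to 2.28 (limma, unadjusted p = 0.028). The second probe set entered the test only because of its TCDD arrays, since its control mean was below the filter, and its p and interval carry that selection. Within the preparations the log2 ratios were 0.46 and 0.93 for the first and 1.20 and 1.25 for the second, the back-skin ratio being given last.

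Both TCDD arrays lay above both controls, so leaving out 1 array could change the size of the Clec4n difference but not its sign. Leaving out each array in turn gave 0.47 to 0.93 for the first probe set and 1.13 to 1.32 for the second. Without control 2, the sample with conflicting labels, they were 0.69 and 1.30. Without control 1, whose actin ratio was the highest, they were 0.70 and 1.15. In back skin the actin ratios were 4.64 (control) and 7.71 (TCDD), and each ratio of TCDD to control came from 1 pair of arrays. A fit with the actin 3′ to 5′ ratio in place of the preparation gave 0.76 (first probe set) and 1.19 (second). The part of RNA quality itself in the Clec4n values was not tested. The suffix s_at marks a probe set whose probes can match more than 1 transcript, so the first Clec4n probe set and that of Clec4d may carry signal from related genes.

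**Figure D2:**
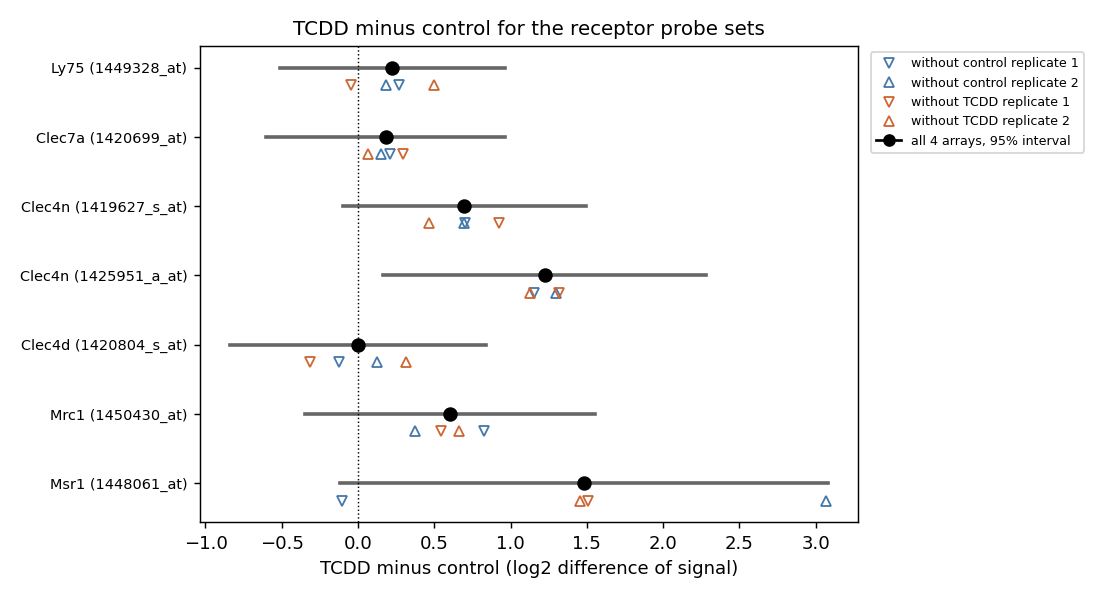
TCDD minus control log2 difference of signal for the 7 receptor probe sets; black points with bars are the fit over all 4 arrays with its 95% interval, and open triangles are fits that leave out 1 array. The interval of the second Clec4n probe set (0.17 to 2.28) does not reach 0 before adjustment, in a probe set that passed the filter through its TCDD arrays, and the Msr1 value moves from -0.10 without control 1 to 3.07 without control 2.

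Mrc1, the mannose receptor, read 146.3 (control 1) and 106.9 (control 2) without TCDD, against 197.5 (TCDD 1) and 182.2 (TCDD 2). Both TCDD arrays were above both controls, and the log2 difference was 0.60 ± 0.42 (SE, n = 2 per group; 95% interval -0.35 to 1.55). The difference was 0.37 without control 2 and 0.83 without control 1. The ratios were 0.77 in back skin and 0.43 in the other pair. Mrc1 is also a marker of dermal macrophages. Of 14 measured dermal macrophage and monocyte markers, 1 (C1qa) had both TCDD arrays above both controls and 2 (C1qc and Mertk) had both below. Their summed signal ranged from 1858 to 2622 in the controls and from 2317 to 2362 after TCDD. A summed signal, here and below, leans on its brightest probe sets and does not measure the amount of a cell type. Of the 14 markers, 9 passed the filter and 1 (Marco) lay under the 20th percentile signal of every array. The part of macrophage RNA in the Mrc1 values was not tested.

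Clec7a, the beta-glucan receptor Dectin-1, was the steadiest of the tested receptors, with a highest signal 1.25 times its lowest. Its signal was 1080.4 and 1035 on the controls, against 1109 on TCDD 1 and 1297 on TCDD 2. The log2 difference was 0.18 ± 0.34 (95% interval -0.60 to 0.96), and it was 0.07 without TCDD 2 and 0.29 without TCDD 1. TCDD 1 exceeded control 1 by 2.61%, and after centring each array on its median they overlapped, which left 3 of the 7 probe sets with TCDD above control.

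Ly75, the uptake receptor DEC-205, read 4657 on control 1, 4399 on control 2, 6390 on TCDD 1 and 4384 on TCDD 2. TCDD 1 stood above the other 3 arrays, which lay within 6.22% of each other. The log2 difference was 0.23 ± 0.32 (95% interval -0.51 to 0.96), and it was -0.05 without TCDD 1. The ratio was -0.005 in back skin and 0.46 in the other pair.

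Clec4d, the partner of Mincle, read 307.6 on control 1, 364.9 on control 2, 416.2 on TCDD 1 and 269.5 on TCDD 2. The ratios of TCDD to control were of like size and opposite sign, -0.44 in back skin and 0.44 in the other pair, so that their mean was near 0 (-0.0005 ± 0.37, 95% interval -0.84 to 0.84). TCDD 1 and control 2 were the higher arrays for Clec4d, as they were for Cd207 and for the summed signal of 7 measured T cell markers, at 1328 and 1995 against 648 on control 1 and 605 on TCDD 2. Within the T cell list Cd247 went otherwise, with 139.2 on control 1 and 117.5 on TCDD 1. The same arrays were also the higher ones for the summed markers of Langerhans cells, dermal macrophages and monocytes, adipocytes and platelets. They were not for those of neutrophils, keratinocytes or endothelium. The part of RNA from any of these cell types in the Clec4d values was not tested.

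Msr1, the class A scavenger receptor, differed by 1.48 ± 0.70 (95% interval -0.12 to 3.08), a value set by 1 array. Its ratios were 3.04 without a site and -0.075 in back skin, and the moderated SE does not show the size of that gap. Its tested probe set (1448061_at) read 24.1 on control 1 and 216.7 on control 2, against 197.9 on TCDD 1 and 205.7 on TCDD 2. The 24.1 lay under the 20th percentile signal of that array, 36.6. Without control 1 the difference was -0.10. Without control 2 it was 3.07 and passed the test (limma, adjusted p = 0.006), in a fit that sets TCDD against control 1 alone and assumes that the lone array varies like the others. With the actin 3′ to 5′ ratio in the model in place of the preparation it was 0.20. A second Msr1 probe set (1425434_a_at), below the filter, was highest on control 1, at 139.4, and lowest on control 2, at 19.5, with 57.4 and 77.6 on TCDD 1 and 2. The 2 probe sets thus ordered the controls in opposite ways.

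**Figure D3:**
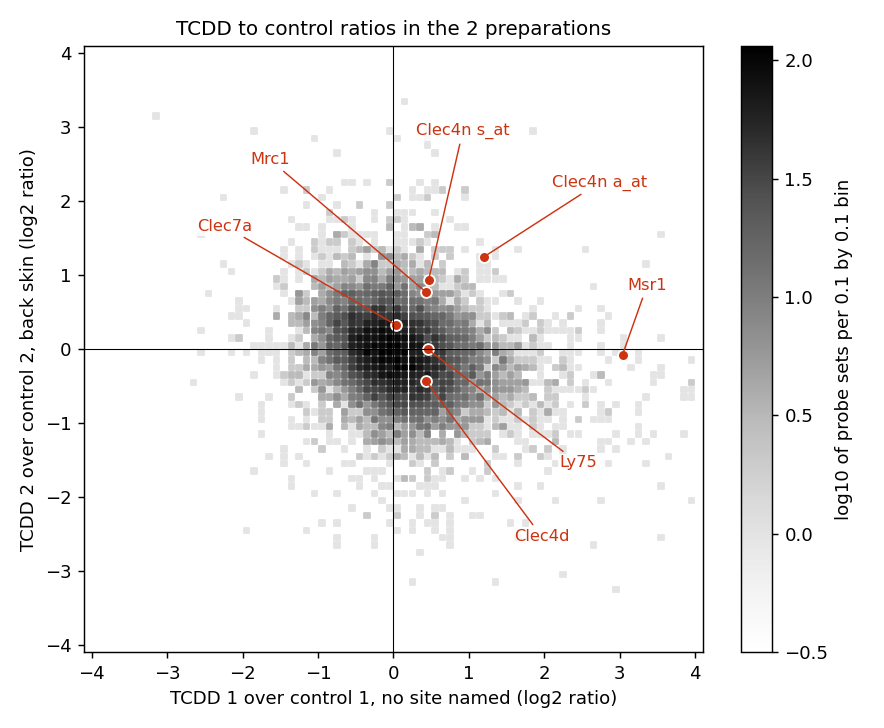
Log2 ratio of TCDD 1 to control 1 (x axis, no site named) against that of TCDD 2 to control 2 (y axis, back skin); red points are the 7 receptor probe sets and grey squares count all 13576 tested probe sets per bin, with ratios beyond 4 drawn at the edge. The Clec4n, Mrc1 and Clec7a points lie above 0 on both axes, Clec4d, Ly75 and Msr1 below 0 on the y axis only.

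By preparation, 4 of the 7 probe sets had a TCDD to control ratio above 0 in both, 0 below 0 in both and 3 of opposite signs. Over all tested probe sets these shares were 19.3%, 21.3% and 59.3%. The second Clec4n probe set, among the 4, and Msr1, among the 3, had control means under the filter. For that reason nothing is read from these counts. The 3 of opposite signs, Ly75, Clec4d and Msr1, each had the positive ratio in the pair with no site named and the negative one in back skin (33.5% of all tested), although the back-skin ratios of Ly75 and Msr1 (-0.005 and -0.075) were close to 0.

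Likeness between the receptors over the 4 arrays was measured as the root mean square difference of log2 signals, each centred on its mean over the 4 arrays, and each gene was taken by its brightest tested probe set. The nearest receptor to Ly75 was Clec4d (0.16) and the reverse. The nearest to Mrc1 was Clec4n and the reverse (0.26), and the nearest to Clec7a was also Clec4n (0.27). Msr1 was far from every other receptor, with Clec4n nearest at 1.20. Over the whole table the probe sets nearest to Ly75 were those of Cnot6 (0.0023), Rufy3 (0.021) and 4921524J17Rik (0.033). With 4 arrays such likeness is common: 139 probe sets of other genes lay within 0.1 of Ly75.

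Clec4n, Clec4d, Clec4e and Clec4a2 are neighbours in a cluster of lectin genes on mouse chromosome 6. In the RefSeq gene table (GRCm38.p6, used for names and order only) the protein-coding genes run Clec4a1, Clec4a3, Clec4a4, Clec4b1, Clec4a2, Clec4b2, Clec4n, Clec4d and Clec4e. Of these 9 genes 5 had a probe set of their own on the array. The adjacent genes Clec4n and Clec4d did not share a pattern: the former was higher on both TCDD arrays, and the latter was higher on TCDD 1 and control 2. The difference between them was not tested.

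AhR and its partner Arnt bind DNA with the core motif GCGTG, so the start-site regions of the receptors were searched for it on both strands. RefSeq promoter windows (GRCm38.p6, 250 bases before to 50 after the start) were at hand for 7 of the 10 genes; Clec4n, Clec10a and Msr1 were not analysed here. The motif was in the windows of 2 of the 7, Ly75 and Clec4e, once each, and in 32.4% of all 32851 windows. Shown, 5′ to 3′ on the strand of the gene and with the motif in capitals, are the windows of Ly75 (chr2:60383224-60383523, minus strand), and of Mrc1 (chr2:14229164-14229463, plus strand) and Clec7a (chr6:129472730-129473029, minus strand), the receptors with a window whose TCDD arrays both lay above the controls.
Ly75: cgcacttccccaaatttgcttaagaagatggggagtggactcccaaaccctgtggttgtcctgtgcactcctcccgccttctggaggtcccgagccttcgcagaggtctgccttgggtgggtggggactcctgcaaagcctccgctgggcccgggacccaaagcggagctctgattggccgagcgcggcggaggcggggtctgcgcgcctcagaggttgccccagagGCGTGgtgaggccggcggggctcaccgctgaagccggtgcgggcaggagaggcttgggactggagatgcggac
Mrc1: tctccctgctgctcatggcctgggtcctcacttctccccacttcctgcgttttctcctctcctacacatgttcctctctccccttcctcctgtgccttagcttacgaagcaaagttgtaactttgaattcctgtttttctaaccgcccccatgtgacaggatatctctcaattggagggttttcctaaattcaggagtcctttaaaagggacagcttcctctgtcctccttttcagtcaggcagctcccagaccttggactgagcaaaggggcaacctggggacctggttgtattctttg
Clec7a: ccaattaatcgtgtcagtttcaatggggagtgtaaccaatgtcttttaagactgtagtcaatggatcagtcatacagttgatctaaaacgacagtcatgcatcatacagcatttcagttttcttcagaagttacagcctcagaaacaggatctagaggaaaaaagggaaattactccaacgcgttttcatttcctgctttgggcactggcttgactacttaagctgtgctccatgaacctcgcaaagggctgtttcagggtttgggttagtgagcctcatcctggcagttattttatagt
The letters of the core motif are absent from the Mrc1 and Clec7a windows, which says nothing of sites elsewhere or of binding.

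Of the 18 receptor probe sets, 11 lay below the filter and were not tested. For 6 of them the signal was under the 20th percentile of the array, 36.6 to 40.6, on all 4 arrays: 1 of Clec4a2, 1 of Clec4e, that of Clec10a, 2 of Msr1 and 1 of Cd36. Without detection calls, a low signal does not show that a gene is silent. Clec10a, the galactose-type lectin of dermal dendritic cells and macrophages, read 28.9 and 31.4 on the controls and 22.1 and 20.8 after TCDD.

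The brighter probe set of Clec4a2 (1422013_at), the inhibitory receptor DCIR, read 10.1 on control 1, 49.1 on control 2, 78.8 on TCDD 1 and 37.7 on TCDD 2. Control 1 was the lowest array, as for the tested Msr1 probe set. The brighter probe set of Clec4e (1420330_at), the Mincle receptor for mycobacterial glycolipid, read 12.9 and 30.6 on the controls and 18.4 and 52.3 after TCDD, and only TCDD 2 was above its array's 20th percentile. Both back-skin arrays were above the others for this probe set.

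The 3 probe sets of Cd36, the scavenger receptor for fatty acids and oxidized lipoproteins, did not share a pattern. The brightest (1450884_at) read 31.6 on control 1, 52.8 on control 2, 44.0 on TCDD 1 and 72.4 on TCDD 2, higher in back skin than without a site in both groups. Another (1450883_a_at) read 14.5 and 43.5 on the controls and 5.2 and 7.3 after TCDD, and only control 2 was above its array's 20th percentile. The third (1423166_at) stayed between 4.6 and 8.5. Cd36 is also made by adipocytes, endothelium and platelets. Summed signals of the measured markers were 309.6 and 533 for adipocytes, 806.3 and 714.5 for endothelium and 1069 and 1332 for platelets on controls 1 and 2. They were 426 and 275, 769.6 and 700.7, and 1100 and 1095 on TCDD 1 and 2.

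**Figure D4:**
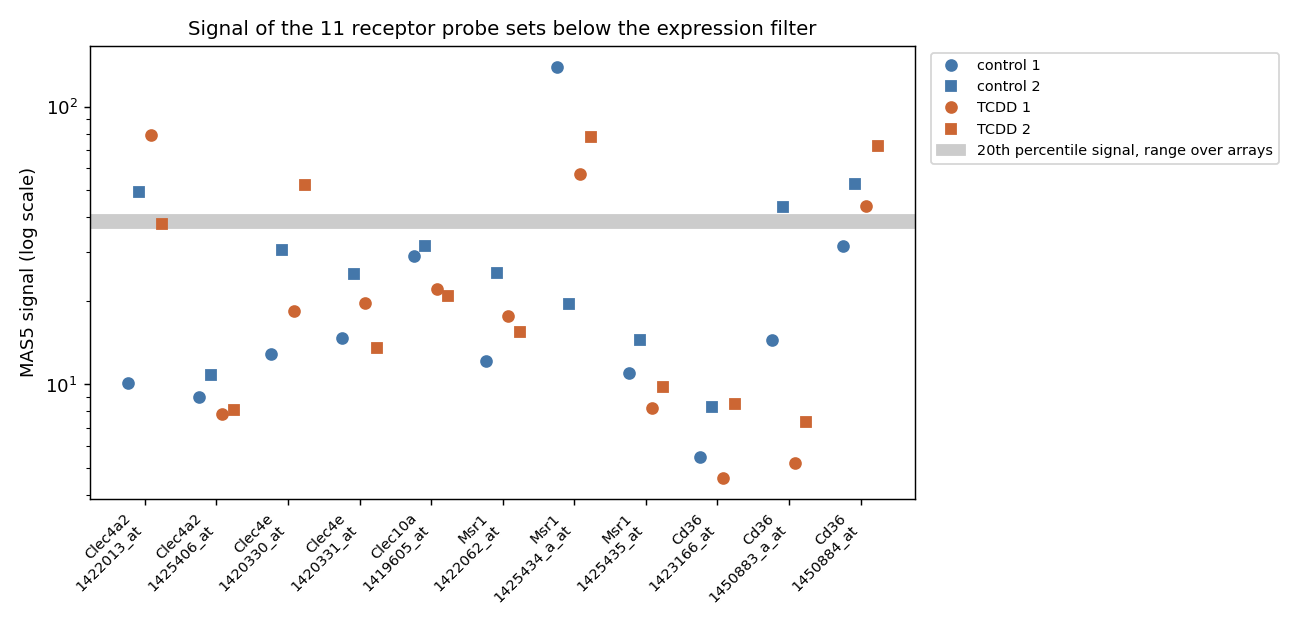
MAS5 signal (log axis) of the 11 receptor probe sets below the expression filter, 4 points per probe set in the order control 1, control 2, TCDD 1 and TCDD 2; the grey band spans the 20th percentile signals of the arrays, 36.6 to 40.6. Points of 6 probe sets lie wholly under the band, and the Msr1 probe set 1425434_a_at is highest on control 1 (139.4).

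A second comparison, of the back-skin pair with the pair lacking a site, asked how the receptors varied with skin site or experiment. Msr1 was the member with the widest difference, and for the other 6 no difference exceeded its SE. Of the 7 receptor probe sets 0 reached an adjusted p under 0.05 (limma, 0.9994 for every one; 0% of all tested), and 1 had an unadjusted p under 0.05, against 2.02% of all tested. That was Msr1, at 1.61 ± 0.70 (SE, n = 2 per preparation; limma, unadjusted p = 0.049), and the difference was 0.09 without control 1. Its mean without a site, 6.11, was under the filter and its back-skin mean, 7.72, above it, so nothing is read from this count. The other 6 lay between -0.31 ± 0.32 for Ly75 and 0.23 ± 0.35 for the first Clec4n probe set. Among them the second Clec4n probe set also had a mean without a site under the filter, 6.81, and a back-skin mean above it, 6.98. Both back-skin arrays lay above the others for 1 of the 7 (Msr1; 16.1% of all tested) and below for 1 (Ly75, by 4399 against 4657; 15.9% of all tested).

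Genes of related receptors and genes that work with the receptors were counted by their brightest tested probe set. In the 4 lists below, 0 genes passed the test (limma, 0% of all 8413 genes), and over all genes 11.4% had both TCDD arrays above both controls and 14.1% had both below, with a median log2 difference of -0.03. At an unadjusted p under 0.05 there were 1, 1, 0 and 1 genes in the lists, in the order given, against 1.26% of all genes.

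Of the other C-type lectin receptors, 28 of 38 had a probe set of their own on the array. Of these 12 were tested, with a median of -0.17. Both TCDD arrays were above the controls for 2, Clec2d and Cd302, and below for 2, Clec2h and Clec11a. Clec2d, a ligand of the natural killer receptor Nkrp1d, read 139.2 and 433.4 on the controls and 739.8 and 614.5 after TCDD, a log2 difference of 1.46 ± 0.47. Its lowest value was again on control 1. Cd302, an endocytic lectin of myeloid cells, differed by 0.48 ± 0.35, Clec2h by -0.55 ± 0.43 and Clec11a, a secreted growth factor, by -0.51 ± 0.40. Cd207 differed by -0.20 ± 0.62.

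Of the other scavenger and clearance receptors, 23 of 29 had a probe set of their own on the array. Of these 12 were tested, with a median of 0.04. Both TCDD arrays were above the controls for Stab2 and Scarb1, and below for Mertk. Stab2, the hyaluronan receptor stabilin-2, read 140 and 163.9 on the controls and 299.5 and 303.1 after TCDD (0.99 ± 0.37). Scarb1, the high-density lipoprotein receptor, differed by 0.38 ± 0.44, Axl, a receptor kinase for apoptotic cells, by 0.34 ± 0.49 and Lrp1, an endocytic receptor of the low-density lipoprotein receptor family, by 0.29 ± 0.36. Cxcl16, a scavenger receptor and chemokine, differed by 0.23 ± 0.34 and Cd68, a lysosomal glycoprotein, by -0.08 ± 0.48.

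Among the signalling partners, 21 of 26 had a probe set of their own on the array. Of these 19 were tested, with a median of -0.02. Fcer1g, the Fc receptor gamma chain through which Clec4n signals, had both TCDD arrays below both controls, unlike Clec4n itself, and read 322 and 383.4 on the controls and 154.4 and 269.5 after TCDD (-0.78 ± 0.36). Ptpn11, the phosphatase SHP-2, also had both TCDD arrays below the controls (-0.12 ± 0.33). Prkcd, the protein kinase C that acts between Syk and Card9, had both above (0.49 ± 0.35). Syk differed by -0.45 ± 0.42, with 753.4 on control 1 and 333.8 to 420.1 on the other 3 arrays. Tyrobp, the adaptor DAP12, differed by -0.02 ± 0.31.

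Of the clathrin and early endosome genes, 29 of 31 had a probe set of their own on the array. Of these 27 were tested, with a median of -0.16. Both TCDD arrays were below the controls for 9 and above for 2 (Snx1 and Stam). The 9 included Ap2m1, the cargo-binding subunit of the clathrin adaptor AP-2 (-0.72 ± 0.36), Hgs, which sorts ubiquitinated receptors (-0.60 ± 0.34), and Dnm2, the dynamin that cuts vesicles free (-0.57 ± 0.36). They also included Dab2, a clathrin adaptor for lipoprotein receptors, which read 343.6 and 281.3 on the controls and 169.6 and 140.4 after TCDD (-1.01 ± 0.36). The brightest of the list differed less: Rab14 by -0.01 ± 0.31, Clta by -0.02 ± 0.31, Rab5a by 0.12 ± 0.32 and Rab7 by -0.17 ± 0.32.

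**Figure D5:**
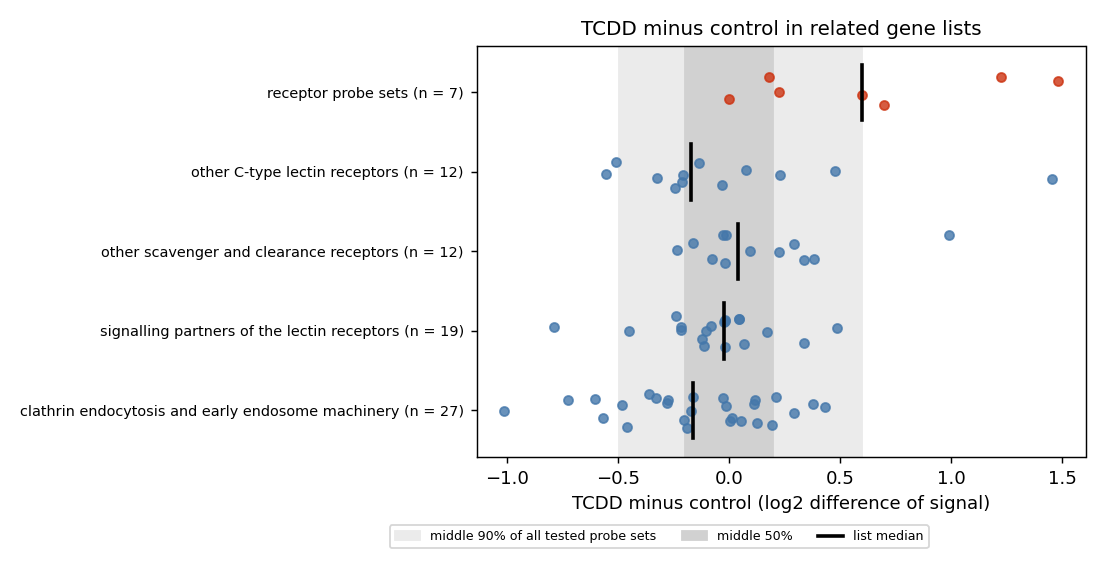
TCDD minus control log2 difference of the 7 receptor probe sets (red) and of the tested genes of 4 related lists (blue, brightest probe set per gene); black bars are medians and grey bands hold the middle 50% and 90% of all tested probe sets. The red points include the 2 probe sets whose control means lay under the filter, and the medians of the blue lists run from -0.17 to 0.04.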

How the data were processed

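Amplified, biotin-labelled RNA was hybridised to 4 one-colour Affymetrix arrays, per the labels' protocols. The authors deposited a MAS5 signal intensity per probe set and array on a linear scale. Affy and MAS5 are named in the submitters' processing notes, and the sources used here give no versions and no detection calls. In every deposited column the mean was 500 once 2% of the values were trimmed at each end. Of the 22690 probe sets, 64 controls were set aside. Signals were taken to log2, and 13576 probe sets went into the test by limma 3.58.1 (R 4.3.3), with terms for treatment and preparation. The eBayes step used a mean-variance trend, and p-values were adjusted by the Benjamini-Hochberg method at 0.05. Each probe set keeps 1 residual degree of freedom. Precision is limited by the number of arrays, with a median SE of 0.364 for a log2 difference. Gene names come from the platform annotation, and all 10 receptor genes matched RefSeq by gene ID. Every receptor probe set is named; from each related list, up to 4 genes with the highest mean signal and up to 4 with the largest TCDD difference may be, and genes named for their place in a count of 2 or fewer were chosen after their values were seen. The members, lists and tests were chosen with earlier results of these data known. As a pairing check, log2 ratios of back skin to the other preparation were taken once between the controls and once between the TCDD arrays. Their correlation across probe sets was -0.18 (Pearson's r). Each ratio comes from 1 pair of arrays, so this value alone cannot show whether arrays of the same preparation deviate together.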

Additional observations from a re-analysis of the deposited data

Results flagged for a closer look

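Of the 7 tested receptor probe sets, 3 had TCDD to control ratios of opposite sign in the preparations, each ratio from 1 pair of arrays, and the difference between the preparations was not tested. For Ly75 the log2 ratio was 0.46 in the pair without a named site and -0.005 in back skin. For Clec4d it was 0.44 in the former pair and -0.44 in the latter, and for Msr1 3.04 and -0.075. Opposite signs were found in 59.3% of all tested probe sets, and nothing is read from the count of 3.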

How the results depend on the processing

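The number of receptor probe sets called for TCDD was 0 in every alternative that used all 4 arrays, and 0 to 1 when an array was left out, the 1 being Msr1 without control 2. Over all probe sets the count for TCDD was 0 with all arrays and 0 to 285 with an array left out (12 without control 1, 285 without control 2). For back skin it was 0 to 89 (89 without TCDD 1), with 0 receptors. Fits without an array hold 1 term and assume that a lone array varies like the others. Without the preparation block both counts stayed at 0. Clec4n (both probe sets), Mrc1 and Clec7a kept their direction for TCDD in all alternatives that tested them. In the fits without an array this was fixed in advance, since their TCDD arrays both lay above both controls. Mrc1, Msr1 and the second Clec4n probe set did not pass the stricter filter. With an array left out, the TCDD difference ran from -0.046 (without TCDD 1) to 0.50 for Ly75, from -0.31 to 0.31 for Clec4d and from -0.10 (without control 1) to 3.07 for Msr1. For Clec4d it was 0.0028 with an offset of 50. The back-skin difference ran from -0.080 to 0.25 for Clec7a, from -0.24 to 0.69 and from -0.46 to 0.79 for the Clec4n probe sets, from -0.41 to 0.028 for Clec4d and from -0.67 to 0.10 for Mrc1. For the second Clec4n probe set it was -0.11 with the actin ratio in the model. The causes were not tested. In alternatives chosen after seeing the data, every TCDD array lay above every control for 4 receptor probe sets with quantile normalization. The number was 3 with median centring and 4 to 6 of 7 without an array, where this held for 26.3% to 36.9% of all tested. The 7 include the 2 probe sets with control means under the filter, so nothing is read from these counts.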
